A study of Mus musculus with 2 samples.

Results

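Respiratory complex I is the largest enzyme of the mitochondrial inner membrane, and the transcripts of its nuclear subunit genes were examined here in the newborn mouse liver. Members were the protein-coding genes whose symbol is Nduf followed by a, b, c, s or v and a number. That rule took 37 of 43346 listed genes, of which 21474 are protein-coding. They lie on 15 chromosomes, and all 37 passed the filter on low values used for ratios, a mean expected count of at least 10. Another 3 genes, Ndufa11b, Ndufb4c and Ndufs6b, fit the name pattern but are annotated as processed pseudogenes, and the last 2 are described with the gene copies.

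The libraries came from whole liver RNA of 2 mice of the B6NCrl strain on postnatal day 0, labelled pup 1 (replicate 1) and pup 3 (replicate 2), with no treatment or engineered allele given. The input was 13 pg of total RNA, above 200 nt in size, which the labels equate with 1 cell although the material was tissue. The labels give both livers the same donor entry and do not record sex. Each pup is 1 library, so differences between the animals and between the library preparations cannot be told apart. Both form 1 group with no contrast, and the values below are levels, their spread (mean ± SD, n = 2) and descriptive ratios, with no test between conditions.

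Complex I takes electrons from NADH, passes them along iron-sulfur clusters to ubiquinone and uses the energy to pump protons across the membrane. It is L-shaped. The matrix arm holds the N module, where NADH is oxidized, and the Q module, where ubiquinone is reduced, and the membrane arm holds a proximal and a distal pump module. The core subunits that carry out catalysis are encoded partly in the nucleus and partly in mitochondrial DNA, and the other nuclear subunits, called accessory, stabilize the enzyme. At birth the liver turns to oxidizing the fat of milk, a process that delivers electrons to this chain.

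The tables held 56959836 expected counts for pup 1 and 35973980 for pup 3, with 3.76% and 3.28% from spike-in RNAs. The 6 hepatocyte markers, all detected in both libraries, summed to 151478 TPM in pup 1 against 123303 in pup 3, and the 5 red cell markers, also all detected, to 132481 and 162862 TPM. Of the 6 markers of other mitochondria-rich tissues (such as Ucp1 of brown fat and Myh6 of heart), 0 reached 1 TPM in either library. TPM (transcripts per 1000000, corrected for length) was taken over endogenous features, so levels of different genes can be set side by side. Where a pair of values is given, pup 1 comes first.

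Nuclear complex I transcripts were abundant as a group. Their summed level was 6525 TPM in pup 1 against 9266 in pup 3, which is 0.652% and 0.927% of all endogenous transcripts (mean 0.790 ± 0.194%). Pup 3 had the larger sum, together with the larger red cell sum and the smaller hepatocyte sum given above. Single markers did not all follow their sums. Of the hepatocyte markers 3 were higher in pup 3 and 3 lower, with a median log2 ratio of 0.06. Of the red cell markers 4 were higher in pup 3 and 1 lower. The part of these markers in the result was not tested. In tissue RNA, fewer cells of a type and less RNA per cell cannot be told apart.

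Detection was nearly complete. At 1 TPM or more, 36 of 37 members were found in both libraries, against 46.3% of the protein-coding genes detected in either. That background includes many weakly expressed genes. Among protein-coding genes of 30 to 1000 mean TPM, a range chosen after the values were seen that holds 36 of the members, 83.8% were found in both. The exception was Ndufa10, which is described with the proximal membrane arm.

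**Figure D1:**
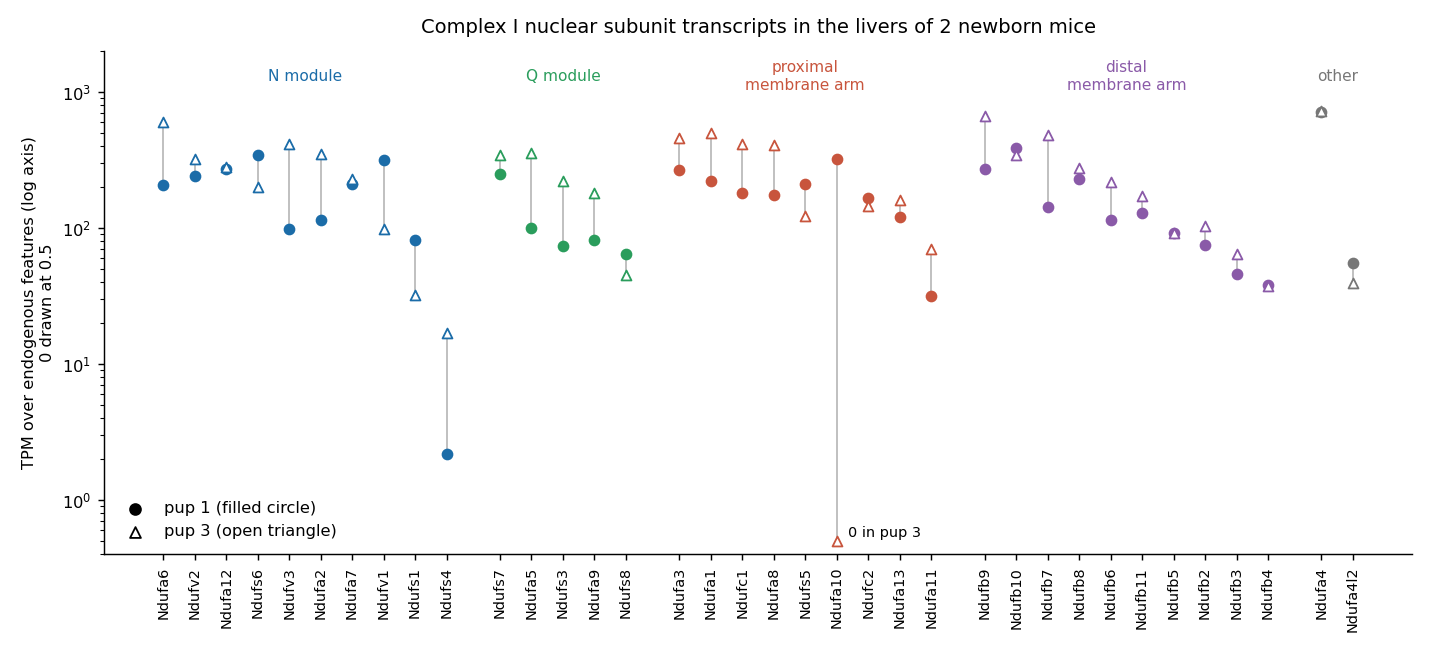
Level of 36 of the 37 members in pup 1 (filled circles) and pup 3 (open triangles), in TPM on a log axis, grouped by the part of the complex and joined by a grey line. Ndufa4 is the highest in both pups (709 and 727 TPM), Ndufs4 is at the bottom (2.17 and 16.9 TPM), and Ndufa10 is the only member at 0 in a library.

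The 10 genes of the N module summed to 1888 TPM in pup 1 against 2549 in pup 3 (0.222 ± 0.0467% of transcripts). This module holds the NADH oxidation site. Ndufv1, which binds NADH and the flavin that first accepts its electrons (chromosome 19, 4007384 to 4012806, minus strand, GRCm38), had 315 TPM in pup 1 against 98.9 in pup 3. Ndufv2, which carries the iron-sulfur cluster beside it, had 242 and 323 TPM. Ndufs1, the largest subunit and the holder of several clusters, had 81.2 and 32.3 TPM. The 3 core genes of the module thus did not move together. Ndufv1 and Ndufs1 were more than 2-fold higher in pup 1, and Ndufv2 was higher in pup 3 by less than that.

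Accessory genes of the N module ran from the third highest member by mean, Ndufa6, to the lowest, Ndufs4. Ndufa6, a small protein that binds the mitochondrial acyl carrier protein, had 206 TPM in pup 1 against 600.4 in pup 3. Ndufa12 had 272 and 282 TPM, and Ndufa7 had 211 and 231 TPM. Those last 2 genes differed little between the libraries, while Ndufa6 stood nearly 3-fold apart. Ndufv3, a subunit made in a short and a long splice form, had 97.8 and 413 TPM. Ndufa2, a thioredoxin-like subunit, had 114 and 349 TPM. Ndufs6, which binds zinc, ran the other way with 347 and 202 TPM.

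Ndufs4 was the lowest member by mean and the only one under 30 TPM. The gene (chromosome 13, 114287795 to 114388258, minus strand) encodes an accessory subunit whose loss in mice is a widely used model of Leigh syndrome. It had 130 expected counts (2.17 TPM) in pup 1 and 696 expected counts (16.9 TPM) in pup 3, a mean of 9.55 ± 10.4 TPM. Its SD exceeded its mean, so little more than a low level can be stated.

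The 6 genes of the Q module summed to 652 TPM in pup 1 against 1206 in pup 3 (0.0929 ± 0.0392%). Ndufs7, which holds the last iron-sulfur cluster before ubiquinone, led with 250.4 and 343 TPM. Ndufs8, another iron-sulfur subunit, had 64.1 and 45.3 TPM. These iron-sulfur subunits were therefore more than 3-fold apart in transcript level, with Ndufs7 above Ndufs8 in both libraries. Ndufs3 had 73.5 TPM in pup 1 against 222 in pup 3. The accessory Ndufa5 had 99.6 and 356 TPM, and Ndufa9, which sits where the arms meet, had 82.0 and 182 TPM. These 3 genes were each more than 2-fold higher in pup 3.

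The 9 genes of the proximal membrane arm summed to 1694 TPM in pup 1 against 2278 in pup 3 (0.199 ± 0.0413%). Ndufa3 had 268 and 459.7 TPM. Ndufa1, an X-linked gene for a small membrane protein, had 222 and 497 TPM. Ndufc1 had 181 and 417 TPM. All 3 were higher in pup 3. Ndufa8, a protein of the intermembrane space side with paired cysteine motifs, had 174 and 407 TPM. Ndufs5, which has the same kind of fold, had 209.9 and 123 TPM. Ndufc2 had 167 and 146 TPM, Ndufa13 (also known as GRIM-19) 121 and 160.4 TPM, and Ndufa11 31.5 and 69.6 TPM. The module thus mixed genes that were higher in either pup.

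Ndufa10 was counted in 1 library only. The gene (chromosome 1, 92439010 to 92473860, minus strand) encodes an accessory subunit related to nucleoside kinases. Its 12604 expected counts in pup 1 (319.7 TPM, the fourth highest member there) stood against 0 in pup 3. On the CPM scale (counts per 1000000 endogenous counts), and with a floor of 3 counts for pup 3 (0.0862 CPM), it was at least 2667-fold higher in pup 1, a bound that covers counting error only because reads amplified by PCR are not independent molecules. Of protein-coding genes with at least 100 expected counts in either library, 37.8% were at 0 in the other, and 9.16% of those of 30 to 1000 mean TPM. One such gene among 37 members is a smaller share than either. In pup 1 its counts fell in 6 annotated transcripts, and all of them were at 0 in pup 3.

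The 10 genes of the distal membrane arm summed to 1527 TPM in pup 1 against 2466 in pup 3 (0.200 ± 0.0664%). Ndufb9, a partner of the acyl carrier protein, was the second highest member by mean, with 271 and 667 TPM. Ndufb10 had 390.0 and 347 TPM. Ndufb7 had 144 and 486 TPM. Both Ndufb7 and Ndufb10 carry paired cysteine motifs, and their order was reversed between the libraries. Ndufb8 had 228 and 277 TPM, Ndufb6 114 and 219 TPM, and Ndufb11, the other X-linked member, 129 and 172 TPM. The lower end held Ndufb5 with 92.1 and 91.6 TPM, Ndufb2 with 74.4 and 103 TPM, Ndufb3 with 46.0 and 64.8 TPM and Ndufb4 with 38.4 and 37.6 TPM. Ndufb5 and Ndufb4 were the most alike between libraries, but the Ndufb4 value depends on how reads were divided with a copy of the gene.

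Outside the modules were Ndufa4 and its paralog Ndufa4l2. Ndufa4 (chromosome 6, 11900292 to 11907497, minus strand), whose product is now assigned to complex IV, was the highest member in both pups, with 709 and 727 TPM (718 ± 13.1). Ndufa4l2, known as a gene induced by low oxygen, had 55.3 and 39.5 TPM. The pair differed by more than their spread. Ndufab1, the acyl carrier protein itself, is a complex I subunit outside the name pattern, and it had 434 and 482 TPM.

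Core genes stood lower than the others by their medians. The 7 nuclear core genes had a median of 82.8 TPM in pup 1 against 98.9 in pup 3, whereas the other 30 had 155 and 225 TPM. Their sums were 1109 and 1123 TPM for the core genes and 5416 and 8143 TPM for the rest, so the larger sum in pup 3 lay outside the core genes. Core transcripts were longer, with a median of 1055 nt against 650 nt (rounded from the listed lengths). Over the 37 members, Spearman's rho between length and mean TPM was -0.61, and over all protein-coding genes past the filter it was -0.47. Those points share both libraries and the length correction of TPM, so the relation is a description.

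The order of the members repeated in part. Spearman's rho between pup 1 and pup 3 was 0.54 over 37 members and 0.66 without Ndufa10. Over the 2685 protein-coding genes of 30 to 1000 mean TPM it was 0.35. Those genes were picked by their mean in the same 2 libraries and the members by name, so these values are not like for like. The 10 highest members took 51.9% of the sum in pup 1 and 54.3% in pup 3, but only 3 genes were among the 10 highest of both. The SD was over 50% of the mean for 16 members, so neighbours in the order of means were mostly not separable. At least 100 TPM was reached in both libraries by 21 members.

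**Figure D2:**
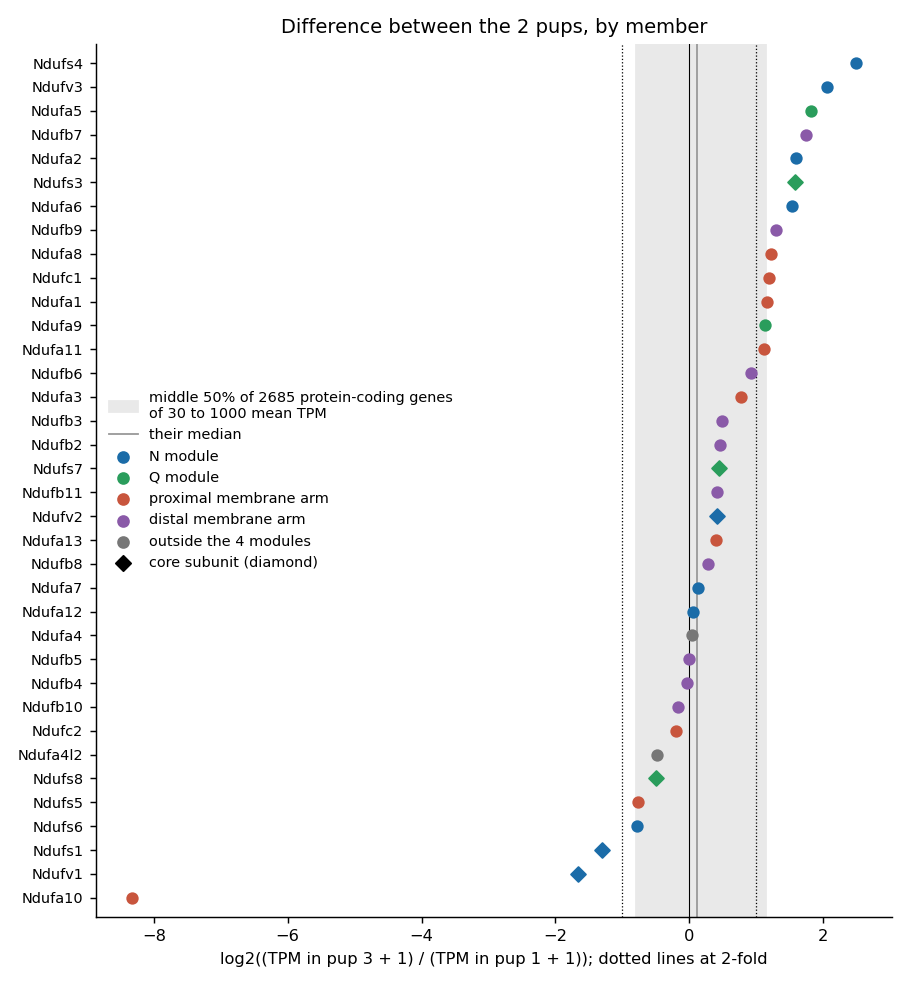
log2 ratio of pup 3 over pup 1 for 36 of the 37 members (TPM + 1), coloured by module, with core genes as diamonds, and the middle 50% of 2685 protein-coding genes of 30 to 1000 mean TPM in grey. Most members lie right of 0, with 13 past the 2-fold line toward pup 3 and 3 past it toward pup 1, and Ndufa10 is far from the rest.

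Between the pups, more members were higher in pup 3 than in pup 1. Ratios were taken as log2 of TPM + 1 in pup 3 over TPM + 1 in pup 1, which understates differences of low genes. The members' median ratio was 0.42, beside -0.05 over the 7301 protein-coding genes past the filter and 0.13 over those of 30 to 1000 mean TPM. Spike-in, edgeR or DESeq2 scaling divides each library by a single factor, which moves the members and all genes alike. The gap between these medians (0.44 to 0.48, beside 0.47 on the TPM scale) could therefore hardly change, and its persistence is no support. Of the 37 members, 25 were higher in pup 3 by any amount. The backgrounds were 49.2% of all those genes and 54.1% of those in the range. With edgeR or DESeq2 scaling the count of members was 22, and with spike-in scaling 29. Background shares were not counted under these scalings.

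More than 2-fold apart were 13 members toward pup 3, against a background of 34.4%, and 3 toward pup 1, against 35.7%. In the range of 30 to 1000 mean TPM the backgrounds were 28.2% and 21.9%. The members' 35.1% toward pup 3 is near the first background, and their 8.11% toward pup 1 is below both. Either way, 16 members were past 2-fold, against 70.0% of all those genes and 1343 of the 2685 in the range (50%). Of the 36 members in that range, 15 were past 2-fold (41.7%), with 12 toward pup 3 (33.3%) and 3 toward pup 1 (8.33%). Over all 37 members, the split with edgeR or DESeq2 scaling was 8 toward pup 3 and 5 toward pup 1. The background shares were counted on the TPM scale only, so that split has no matching share. The middle member differed by 0.78 on the log2 scale in either direction, while the middle gene in the range differed by 1.00 and the middle gene overall by 2.26.

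The largest ratios toward pup 3 were those of Ndufs4 (2.50), Ndufv3 (2.07), Ndufa5 (1.83), Ndufb7 (1.75) and Ndufa2 (1.60). Toward pup 1 they were those of Ndufa10 (-8.33, a value set by the pseudocount), Ndufv1 (-1.66), Ndufs1 (-1.30), Ndufs6 (-0.78) and Ndufs5 (-0.77). The first group has no core gene, and the second has 2. The 7 core genes had a median ratio of -0.49, with 3 higher in pup 3 and 4 lower, and the other 30 had 0.48, with 22 higher and 8 lower. Spearman's rho between length and ratio was weak, at -0.23 over the members and -0.21 without Ndufa10. It was -0.12 over the 30 members outside the core and -0.04 over all genes past the filter. The split into core and other genes was looked at with the values known, and no test was made.

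By module the median ratio was 0.27 for N, 0.80 for Q, 0.78 for the proximal arm and 0.44 for the distal arm. In each module genes stood on both sides of 0. The N module was the most divided, with 4 of its 10 genes more than 2-fold toward pup 3 and 2 toward pup 1. In the distal arm 8 of 10 genes were within 2-fold.

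**Figure D3:**
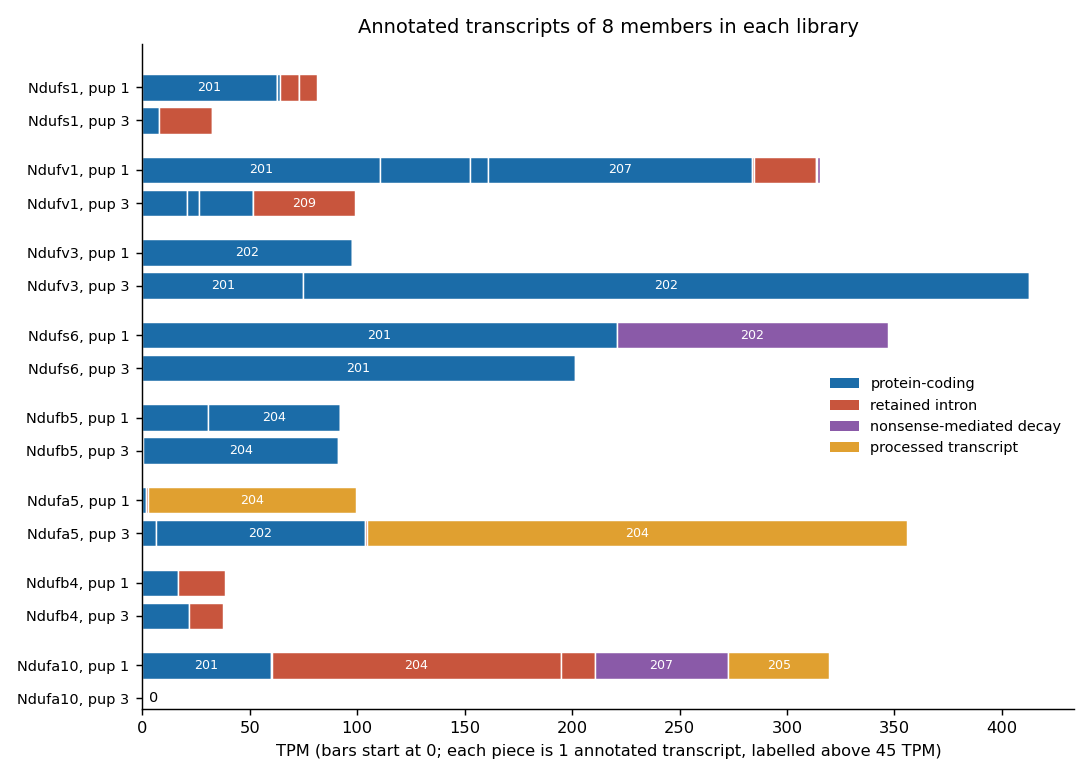
TPM of each annotated transcript of 8 members in each library, as stacked bars coloured by the transcript's annotated class. Protein-coding transcripts of Ndufs1 and Ndufv1 are lower in pup 3 than in pup 1, the long Ndufv3 transcript (201) has counts only in pup 3, and Ndufa10 has no transcript in pup 3.

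Transcript tables gave a second readout, the isoform percent, which is a transcript's share of its gene's TPM. In the annotation 14 members have 1 transcript in the tables and 23 have 2 or more, of which 22 could be compared. The leading transcript differed between the libraries in 3 of these, against 25.7% of protein-coding genes of 30 to 1000 mean TPM. Over all members, protein-coding transcripts held 88.4% of the level in pup 1 and 92.7% in pup 3, and transcripts with a retained intron 4.95% and 3.57%. Over protein-coding genes of 30 to 1000 mean TPM these shares were 91.2% and 90.1%, and 3.02% and 3.82%. The members' shares were on the other side of the background in pup 3 than in pup 1. That switch rests on a single gene, Ndufa10, which was counted in pup 1 only. There it had 319.7 TPM, with 47.2% in retained-intron and 18.7% in protein-coding transcripts. With Ndufa10 left out, the pup 1 shares lie on the same side of the background as those of pup 3.

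The 3 genes whose leading transcript differed were Ndufs1, Ndufv1 and Ndufb4. For Ndufs1 (chromosome 1, 63143596 to 63176833, minus strand), the full-length protein-coding transcript Ndufs1-201 had 62.5 TPM in pup 1 against 7.81 in pup 3. The shorter retained-intron transcript Ndufs1-210 had 8.39 and 24.4 TPM. Retained-intron transcripts as a class made up 21.04% of the gene in pup 1 and 75.8% in pup 3. The difference between the pups was therefore larger in the coding transcript than in the gene total. An exon of the noncoding gene Ino80dos overlaps Ndufs1 on the other strand by 489 nt and was at 0 in both libraries. Eef1b2, also on the other strand, shares 9 nt with Ndufs1 and had 6469 and 3957 expected counts. The use of strand in counting is a point on which the sources used here are silent.

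Ndufv1 showed the same pattern. Its protein-coding transcripts made up 90.03% of the gene in pup 1 and 51.9% in pup 3. The leading one, Ndufv1-207, had 123 and 24.8 TPM, and the retained-intron transcript Ndufv1-209 had 28.7 and 47.4 TPM. The latter is 412 nt long and had 375 and 425 expected counts, so its TPM rests on few reads. For Ndufb4 the retained-intron transcript Ndufb4-202 held 57.0% in pup 1 and 42.3% in pup 3, so its lead in pup 1 was narrow. The coding Ndufb4-201 had 600 and 541 expected counts, while an identical copy of the coding sequence, described below, took 2689 and 2487. Which Ndufb4 transcript leads thus depends on how reads were divided with the copy.

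Other members differed in makeup but kept their leading transcript. Ndufs6-202, annotated for nonsense-mediated decay, held 36.4% of Ndufs6 in pup 1 and 0.20% in pup 3, while the coding Ndufs6-201 had 221 and 201 TPM. The difference in Ndufs6 between the pups thus lay largely in the transcript annotated as a decay target. Ndufb5-203 held 33.2% of Ndufb5 in pup 1 and was at 0 in pup 3. Ndufa5-202 was at 0 in pup 1 and held 27.2% of Ndufa5 in pup 3. In both libraries Ndufa5 was led by Ndufa5-204, a transcript with no annotated protein (97.1 and 251 TPM), so most of that gene's level was assigned outside its coding transcripts.

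Ndufv3 makes its long form by including a large exon. The long transcript, Ndufv3-201 of 1537 nt, had no counts in pup 1 against 3082 expected counts in pup 3 (74.8 TPM, 18.1% of the gene). That is at least 1619-fold higher on the CPM scale with the floor of 3 counts, a bound that covers counting error only, as for Ndufa10. No background share of zeros is given for single transcripts. The short Ndufv3-202 had 97.5 and 338 TPM. Both forms were thus present in pup 3, and the short form alone was counted in pup 1. Ndufa10 in pup 1 was led by the retained-intron Ndufa10-204 (42.1%), and the full-length coding Ndufa10-201 held 18.7%.

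Near-identical copies can take reads from a gene. Alignment of member transcripts to processed pseudogenes found 9 copies of 7 members at 95% identity or more over at least 100 nt, of which 6 had counts and 3 were at 0 in both libraries. Ndufb4c (chr15:73809507-73809896, minus strand, GRCm38) matches the whole coding sequence of Ndufb4, 390 nt, with no mismatch. The start of that shared sequence and of a less exact pair is printed to show what a read can and cannot tell apart. Each sequence is coding positions 1 to 60 of the gene, from GENCODE M21, with differences within the pair in capitals.
Ndufb4: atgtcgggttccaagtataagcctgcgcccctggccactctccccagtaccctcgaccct
Ndufb4c (chr15:73809837-73809896, minus strand): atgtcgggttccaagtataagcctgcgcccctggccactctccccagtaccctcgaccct
Ndufs3: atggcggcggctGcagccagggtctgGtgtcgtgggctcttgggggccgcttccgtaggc
Gm12251 (chr11:58393501-58393560, minus strand): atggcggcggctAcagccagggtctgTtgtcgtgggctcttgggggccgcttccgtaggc

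The 60 bases of Ndufb4 and Ndufb4c have 0 differences and those of Ndufs3 and Gm12251 have 2. A read within the Ndufb4 coding sequence has no base that could place it, whereas reads over the capitals of the other pair do. The tables gave Ndufb4c 2689 (pup 1) and 2487 (pup 3) expected counts, beside 935 and 708 for Ndufb4. The copy thus took 74.2% and 77.8% of the pair's counts (76.0 ± 2.57%), which was 221 and 298 TPM on its short length. Summed, the pair had 260 and 336 TPM (298 ± 53.9), while Ndufb4 alone had 38.0 ± 0.574 TPM. Whether these reads came from Ndufb4 cannot be told from the tables, so Ndufb4 has an uncertain place in the order of members and an uncertain leading transcript.

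**Figure D4:**
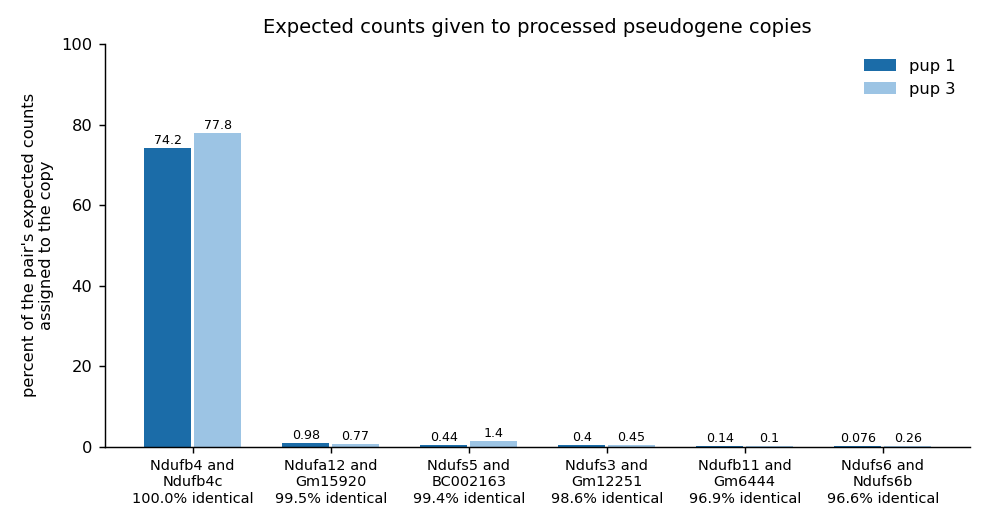
Percent of each pair's expected counts that was assigned to the processed pseudogene, for the 6 pairs in which the copy had counts, in pup 1 (dark) and pup 3 (light), with the identity of the aligned stretch under each pair. Only the Ndufb4 pair, at 100% identity, gives most counts to the copy (74.2% and 77.8%), and the other 5 are at 1.45% or less.

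The other copies took little. Gm12251 had 11.2 and 26.9 expected counts beside 2768 and 5934 for Ndufs3, at 98.6% identity over 792 nt. Gm15920, at 99.5% identity to Ndufa12, took 0.983% and 0.768% of that pair. BC002163, a copy of Ndufs5, took 0.442% and 1.45%. Gm6444, a copy of Ndufb11, and Ndufs6b, a copy of Ndufs6, each took under these shares. Those shares are the outcome of the division, so they do not limit how many reads could have fitted either sequence. BC002163 differs from Ndufs5 at 2 of 319 aligned bases, and Gm15920 from Ndufa12 at 2 of 402.

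Exons of genes on the opposite strand overlap those of 13 members. Of the 15 such genes, 9 were at 0 in both libraries, among them Mrpl47, which shares 616 nt with Ndufb5. Shmt2, which shares 32 nt with Ndufa4l2, had 9495 and 9783 expected counts beside 1989 and 974 for Ndufa4l2. Smim27, which shares 257 nt with Ndufb6, had 309 and 0. Mrpl36, which shares 30 nt with Ndufs6, had 1960 and 0, and Eef1b2, which shares 9 nt with Ndufs1, had 6469 and 3957. Tmco6, beside Ndufa2, had 1 and 0, and Kbtbd4, beside Ndufs3, had 2.12 and 1.06. Reads in the shared stretches could belong to either gene if strand was not used.

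**Figure D5:**
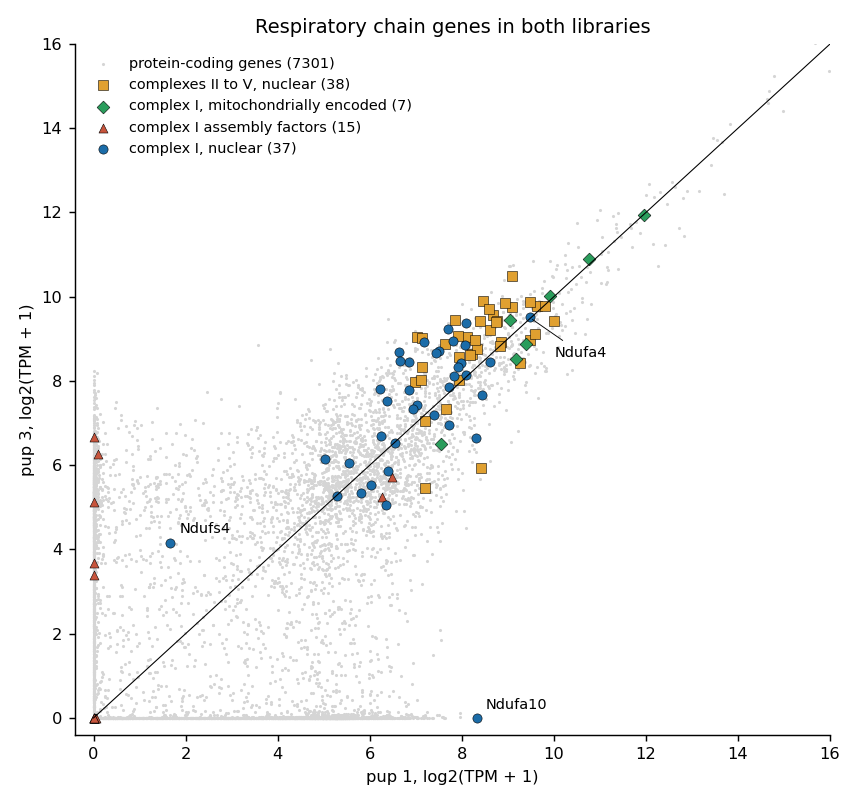
Level in pup 1 against pup 3, in log2(TPM + 1), for nuclear complex I genes (37), mitochondrially encoded complex I genes (7), complex I assembly factors (15) and nuclear genes of complexes II to V (38) over 7301 protein-coding genes past the filter (grey). Most subunit genes lie at high levels in both libraries on either side of the diagonal, Ndufa10 and Ndufs4 are labelled as the member at 0 in pup 3 and the lowest by mean, and 5 assembly factors lie on the left edge and 8 near the origin.

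The other parts of complex I are encoded in mitochondrial DNA or act during its assembly. The 7 mitochondrially encoded core genes were all detected in both libraries and summed to 8677 TPM in pup 1 against 8484 in pup 3, which is 1.33 and 0.916 times the nuclear sum (1.12 ± 0.293). The highest, mt-Nd1, had 4007 and 3928 TPM, and the lowest, mt-Nd4l, 187 and 89.7 TPM. Their median ratio was -0.03. The mitochondrial sum was nearly level between the pups while the nuclear sum was higher in pup 3. Copies of mitochondrial DNA in the nuclear genome can share reads with these genes.

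Assembly factors, which build the enzyme but do not remain in it, were sparse beside the subunits. Of 15 listed, 2 were detected in both libraries, 5 in pup 3 only and 8 in neither, and they summed to 165 and 321 TPM. Ndufaf8 was the highest by mean, with 88.7 TPM in pup 1 against 51.9 in pup 3, and Foxred1 was the other one found in both. Ndufaf1 had no counts in pup 1 against 3619 expected counts in pup 3 (100.2 TPM), at least 1901-fold higher on the CPM scale, again a bound for counting error only. Zeros in 1 library were found in 37.8% of protein-coding genes with at least 100 expected counts in either. Among those of 30 to 1000 mean TPM the share was 9.16%. The count of factors in both, 2 of the 7 detected in either, stands against 36 of 37 subunits and 46.3% of protein-coding genes. Assembly factor transcripts were much lower in level than those of the subunits, and their detection was not compared at matched level.

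Nuclear subunit genes of the other respiratory complexes were at similar or higher levels and leaned the same way. All 38 were detected in both libraries and summed to 14910 and 21009 TPM. Their median ratio was 0.64, with 29 higher in pup 3, beside 0.42 and 25 of 37 for complex I. By complex the median was 1.29 for the 4 genes of complex II, 0.59 for complex III, 0.75 for complex IV and 0.43 for complex V. The largest mean level was that of Atp5b, the catalytic subunit of ATP synthase, with 544 and 1446 TPM. In pup 1 several other genes were above it, and Cox6a1 of complex IV was the highest there (1023 TPM). The difference between the lists was not tested.

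Promoter sequence is a property the rule did not use. Many nuclear genes of the respiratory chain are known targets of the factors NRF1, GABPA, YY1 and ERR. RefSeq windows on GRCm38.p6, 250 bases before to 50 after the start site, were at hand for 32 of the 37 members. The NRF1 letters GCGCA, any base, GCGC, on either strand, were in 7 of the 32 (21.9%), beside 7.50% of protein-coding genes and 13.7% of those of 30 to 1000 mean TPM. The YY1 letters AAGATGGC were also in 7 (21.9%), beside 3.66% and 5.99%. The letter sets were picked after expression values were known.

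The matched stretches are printed because they show where these letters lie relative to the start of the gene. The NRF1 letters are in capitals below, each in a window of 30 bases on the gene's own strand.
Ndufa11 (chr17:56717692-56717721, plus strand): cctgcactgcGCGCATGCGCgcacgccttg
Ndufa5 (chr6:24527697-24527726, minus strand): tgtgtgagctGCGCAGGCGCaaatctacct
Ndufa6 (chr15:82354249-82354278, minus strand): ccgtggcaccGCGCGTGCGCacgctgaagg
Ndufa8 (chr2:36049349-36049378, minus strand): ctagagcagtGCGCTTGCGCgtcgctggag
Ndufb4 (chr16:37654540-37654569, minus strand): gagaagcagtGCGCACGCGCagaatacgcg
Ndufs5 (chr4:123718265-123718294, minus strand): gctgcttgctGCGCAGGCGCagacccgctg
Ndufs6 (chr13:73328479-73328508, minus strand): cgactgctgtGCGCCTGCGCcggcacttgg

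In 6 of these genes the letters begin before the start site, from 191 bases before it in Ndufb4 to 16 in Ndufs6, and in Ndufa6 they begin 24 bases after. Ndufa5 has 2 listed start sites, and the same stretch is 190 and 26 bases before them. The genes' mean levels ran from 38.0 TPM for Ndufb4 to 403 TPM for Ndufa6. The YY1 letters lay elsewhere, as the next set shows.
Ndufa3 (chr7:3617384-3617413, plus strand): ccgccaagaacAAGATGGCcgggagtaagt
Ndufa9 (chr6:126849097-126849126, minus strand): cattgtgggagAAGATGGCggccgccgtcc
Ndufb8 (chr19:44555393-44555422, minus strand): tgaaccgcggagaaggtgAAGATGGCtgcc
Ndufc1 (chr3:51408915-51408944, minus strand): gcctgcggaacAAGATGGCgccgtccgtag
Ndufs4 (chr13:114388045-114388074, minus strand): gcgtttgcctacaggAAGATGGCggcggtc
Ndufs6 (chr13:73328433-73328462, minus strand): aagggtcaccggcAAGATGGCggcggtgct
Ndufs7 (chr10:80249462-80249491, plus strand): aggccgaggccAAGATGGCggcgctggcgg

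All 7 stretches begin after the start site, from 23 bases in Ndufa3 and Ndufc1 to 39 in Ndufb8. In all 7 the ATG inside the letters is the annotated start codon, so the same bases also begin the protein. These genes ranged from 9.55 TPM for Ndufs4 to 364 TPM for Ndufa3 in mean level, and Ndufs6 alone held both letter sets. The GABPA letters ACCGGAAG were in 3 members (9.38%), beside 3.57% and 6.36%, and the shorter CCGGAAG, which they contain, in 4 (12.5%), beside 13.5% and 24.0%. The ERR letters AAGGTCA were in 3 (9.38%), beside 4.63% and 5.20%. A match of letters is not a measured binding site.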

How the data were processed

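Extraction used a mirVana kit and library preparation a SmartSeq protocol with PCR of the cDNA, per the labels' protocols. Per the deposited notes, values refer to mm10 with GENCODE M4 genes; for the quantification program and use of strand: not given in the sources used here. The authors deposited expected counts (estimated reads per feature, not whole), TPM corrected for effective length (length less 99 nt), posterior mean TPM (treated as a score) and isoform percent. Here spike-ins were removed and TPM rescaled to 1000000. Gene identifiers were named from GENCODE M21 (GRCm38, equal to mm10), where 42462 of 43346 matched. Depth, 54817565 and 34792898 endogenous counts, gives floors of 0.0547 and 0.0862 CPM at 3 counts; the libraries' counts over the members differed far beyond counting noise (chi-square 1291 per degree of freedom). A member was detected at 1 TPM. No count model was used for testing. Named were the 10 highest and 5 lowest members, the 5 largest ratios each way, members at 0 in 1 library, the 7 core genes, and the rest within modules; other genes are the highest and lowest of their lists. Foxred1, Ndufaf1, the copies, the overlapping genes and the transcripts were picked with their values known. One member enters counts and sums but is not reported here by itself. The members and lists were chosen with earlier results of these data known. Alternatives covered units, thresholds, pseudocounts, filters, thinning and scaling by edgeR 4.0.16 TMM factors, DESeq2 1.42.0 size factors (rounded expected counts) and spike-in totals. Copies were found with blastn 2.17.0. The scripts ran on R 4.3.3 and Python 3.11.15 with scipy 1.17.1, pandas 2.3.3, numpy 2.4.6 and matplotlib 3.10.9.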

Additional observations from a re-analysis of the deposited data

How the results depend on the processing

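The 2 libraries limit every value, and each ratio compares 1 library with 1. Of 75 alternatives for the summed shares, detection and ratios, 63 left the value within its limits and 12 moved it. Some of the 63 could not have done otherwise. A share from either library alone always lies within the SD when n = 2, and the low-count filter removed no member. The 4-fold limit does not enter the median ratio or the number of members higher in pup 3. Shares and counts cannot change sign, and the median ratio stayed above 0. Single members near 0 did change sign: Ndufa4, Ndufa12 and Ndufa7 to below 0 with TMM or DESeq2 factors, Ndufb10, Ndufc2, Ndufb5 and Ndufb4 to above 0 with spike-in totals, and the last 2 also with CPM. On the CPM scale, which does not correct for length, the share of counts was 0.377% for all members, 0.112% for the N module, 0.0875% for the proximal arm, 0.0949% for the distal arm and 0.0869% for the core genes. The core share with posterior mean TPM was 0.111%, beside an SD too small to hold it. With TMM factors 8 members were more than 2-fold higher in pup 3 and 5 in pup 1, and with DESeq2 size factors also 8 and 5. At 4-fold the counts were 2 and 1. Background shares over all genes were not counted at these settings. The members' median ratio ran from 0.18 (TMM) to 0.62 (spike-in totals), as the median of all genes moved from -0.26 to 0.14. Members higher in pup 3 ran from 22 to 29. Detection in both libraries ran from 35 (5 or 10 TPM) to 36. Each library alone gave shares of 0.652% and 0.927%; ratios and detection in both need both libraries and could not be recomputed with 1 left out. No paired analysis was possible because the study has 1 group.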

Other observations

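Within complex II, succinate dehydrogenase, the 4 genes did not move together. Sdha, the flavoprotein that oxidizes succinate, had 339 TPM in pup 1 against 59.99 in pup 3, a log2 ratio of -2.48. Sdhb, its iron-sulfur partner, had 126 and 251 TPM, and the membrane anchors Sdhc and Sdhd had 130 and 530.0 TPM and 229 and 692 TPM. In complex I the flavin-binding Ndufv1 was also higher in pup 1, at 315 against 98.9 TPM. Sdha was chosen after its values were seen, and each ratio rests on 1 library per pup.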
